A study of Homo sapiens with 36 samples.

Results

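The genes described here are 50 genes of mitosis: the kinases, cyclins and phosphatases that drive entry into mitosis, the spindle checkpoint, the machinery of anaphase, the kinetochore, the spindle motors and the condensins, with FOXM1, a transcription factor of mitotic genes. They were taken by symbol, from 60642 rows in the K562 degron table, 57820 in the HEL table and 13707 in the K562 LDB1 table. All 50 were present in the first and second tables and 49 in all 3, because UBE2C has no row in the LDB1 table. RNA from 36 libraries of K562, a line from chronic myeloid leukemia with erythroid features, and HEL, an erythroleukemia line, was sequenced to ask which transcripts depend on LMO2, LDB1 and TAL1, partners in a blood transcription complex.

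In the K562 degron set, LMO2 was targeted in 2 degron lines, whose labels read LMO2 degron rep 1 and rep 2, and the references were a line labelled LMO2 control and the parental line. A degron is a tag through which a small molecule, here dTAGv1, directs the tagged protein to breakdown. All 4 lines, controls included, were sampled on day 1 and day 4 of dTAGv1, given as 750 uM in the labels (possibly meant as nM), and on day 0 without it, with bio rep 1 and 2 at each point. The labels do not say what the LMO2 control line carries. LMO2 RNA ranged from 128.0 to 271.1 FPKM (fragments scaled to transcript length and library size) in the degron lines, from 212.1 to 443.2 FPKM in LMO2 control and from 31.2 to 46.6 FPKM in the parental line, so the lines differ in LMO2 before any treatment. This RNA does not measure loss of the protein. In HEL, cells were electroporated with TAL1 siPool 1, TAL1 siPool 2 or a non-targeting (NT) pool, 3 libraries each, and TAL1 stood at 165.5 to 190.7 and at 179.6 to 194.8 CPM (counts scaled to library size) with the pools, against 438.7 to 490.9 CPM with the NT pool. In the third set, K562 carried LDB1 shRNA 1, LDB1 shRNA 2 or a control shRNA, with 1 library each, and LDB1 stood at 62.4 and 69.6 TPM (transcript abundance scaled to length and library total), against 467.9 TPM with the control shRNA.

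Mitosis begins when cyclin-bound CDK1 is activated by CDC25 phosphatases, and the Aurora and Polo-like kinases then build the spindle. Kinetochores assemble on centromeres marked by the histone variant CENPA and hold chromosomes to microtubules, and the spindle checkpoint delays anaphase until all are attached. The anaphase-promoting complex with CDC20 then marks securin and cyclin B for breakdown. Transcripts of this set are periodic: they are low in resting cells and are raised late in the cell cycle through the MuvB, B-MYB and FOXM1 factors, which act at promoters with the CHR element and the CCAAT box. In bulk RNA, a smaller share of cells in G2 or mitosis and less of such RNA in each cell cannot be told apart.

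Depth is unknown for the LDB1 set and was 15.9 to 27 M counts per library in HEL and 17.2 to 26.3 M reads per library, inferred from the FPKM steps, in the degron set. The summed level of 9 erythroid markers was 161 to 268 FPKM in degron lines on day 4, against 402 to 757 FPKM in the control lines, and 449 to 752 FPKM in degron lines on day 0, against 415 to 955 FPKM in the control lines. It was 1505 to 1904 CPM with siPool 1 and 1830 to 2056 CPM with siPool 2, against 3234 to 3749 CPM with the NT pool, and 5774 and 7814 TPM with the LDB1 shRNAs, against 10361 TPM with the control shRNA. The 6 epithelial and stromal markers (mainly EPCAM and COL1A1, with KRT5 at 0) summed to 9.41 to 15.3 FPKM in degron lines and 26.6 to 48.3 FPKM in control lines on day 4, and the EPCAM and COL1A1 of the LDB1 table to 44.8 and 53.3 TPM with the LDB1 shRNAs, against 126 TPM with the control shRNA. The 5 megakaryocytic markers summed to 1.36 to 2.01 FPKM in degron lines and 2.14 to 4.86 FPKM in control lines on day 4, with GP1BB at 0. On day 0 they summed to 1.07 to 2.74 FPKM in degron lines and 0.852 to 6.1 FPKM in control lines. They summed to 1137 to 1385 CPM with siPool 1 and 953 to 1478 CPM with siPool 2, against 987 to 1356 CPM with the NT pool, and the 2 in the LDB1 table to 42.3 and 36.9 TPM, against 24.2 TPM. The part of any of these in the results below was not tested. In 4 libraries, those of bio rep 1 on day 1, single members stood apart: CENPE, CENPF, HMMR, SMC2 and SMC4 were at least 2-fold below bio rep 2 in degron line 1 and LMO2 control, and CENPE also in degron line 2 and the parental line. The counts of called members and the medians of day 1, and of day 4 minus day 1, are given with and without these libraries.

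On day 4 of dTAGv1 the mitotic genes fell in the degron lines across every functional group. The degron-specific change is how far both degron lines moved from day 0, averaged, less the same average for the parental and LMO2 control lines, on the log2(FPKM + 1) scale, and a gene was called at an adjusted p under 0.05 in limma across 15348 genes. The labels call replicates bio reps without saying what they share, so p-values measure the spread between these samples, which may be technical. By this measure 38 of the 50 members were called lower on day 4 and 0 higher, where 8.18% of all genes were called lower and 11.6% higher. The median change of the members was -0.93, with a range of -1.53 to 0.04, where the median of all genes was 0.06. In 22 members the change was -1 or lower. Among the 8 libraries of day 4, all 4 degron values lay below all 4 control values in 45 members, where this held for 20.2% of all genes. The members whose groups overlapped were CDC25B, UBE2C, CENPM, KIF11 and FOXM1.

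**Figure D1:**
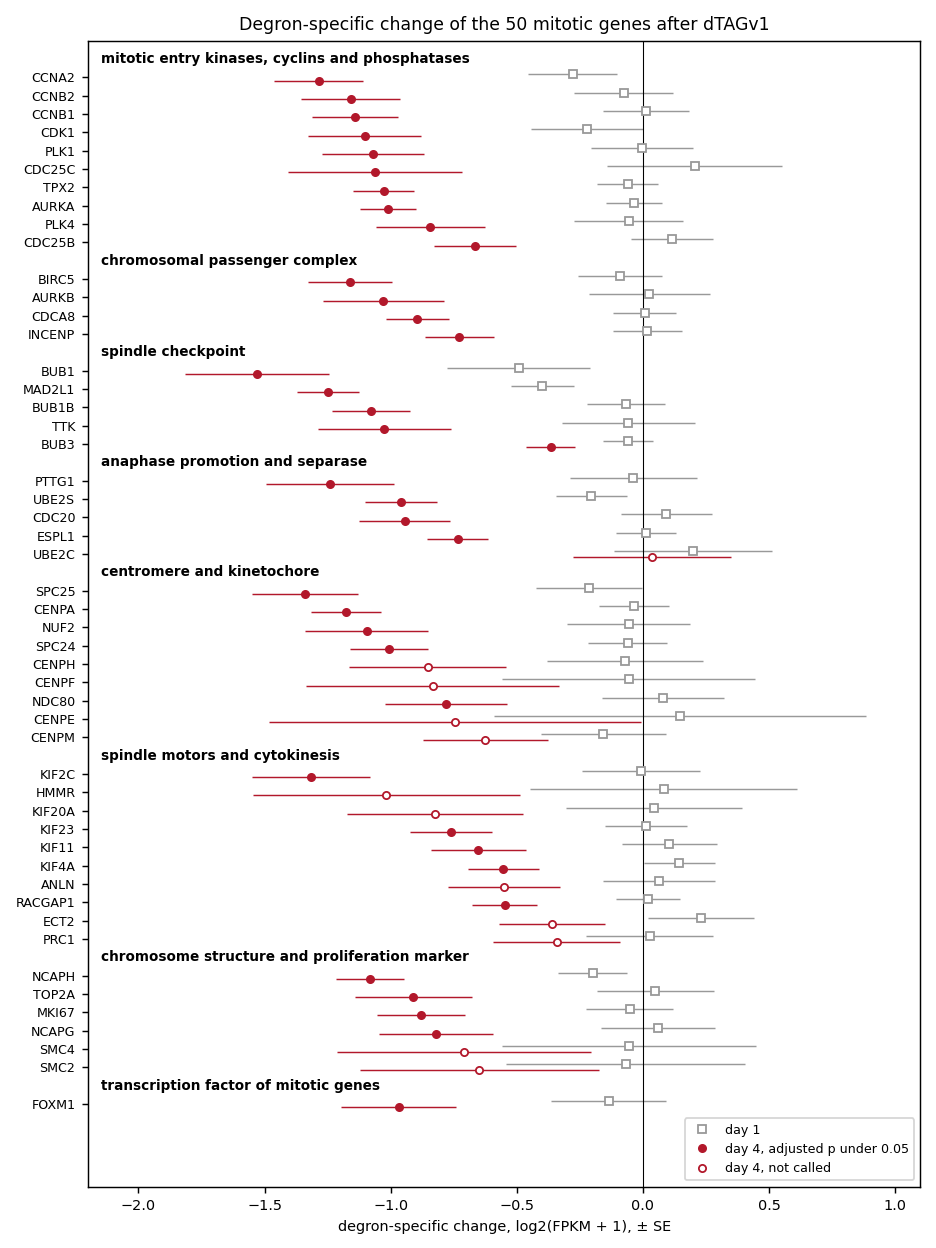
Degron-specific change on the log2(FPKM + 1) scale, with its SE, for each of the 50 members on day 1 (squares) and day 4 (circles), grouped by role. Filled circles are members called lower on day 4 (38 of 50), and all day 1 squares are open because 0 members were called.

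Added over the 50 members, the level on day 4 was 53.9% and 66.5% of the same line and bio rep on day 0 in degron line 1 and 44.5% and 38.2% in degron line 2. It was 100.7% and 103.1% in LMO2 control and 95.7% and 104.9% in the parental line. All 4 degron libraries thus lay below all 4 control libraries. On day 1 the sums were 90.8% and 103.3% in degron line 1 and 84.9% and 94.8% in degron line 2, against 90.6% and 102.8% in LMO2 control and 91.4% and 105.4% in the parental line, and the groups overlapped.

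**Figure D2:**
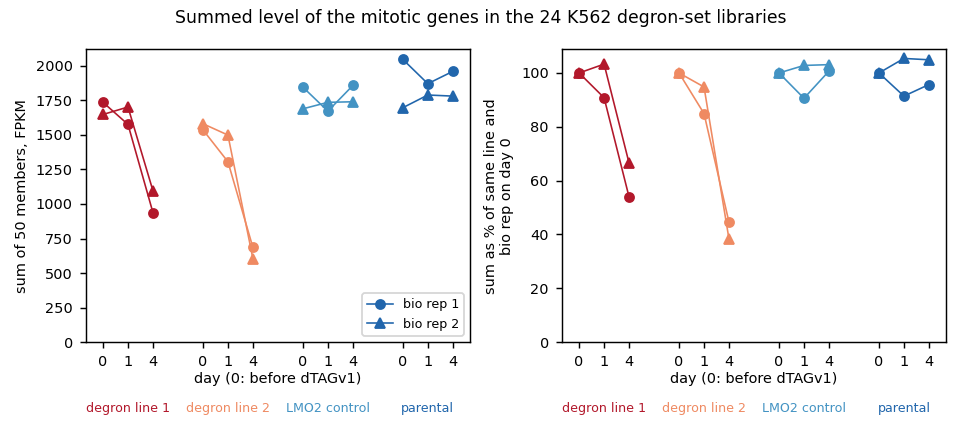
Sum of the FPKM of the 50 members in each of the 24 degron-set libraries (left) and the same sum as a percentage of day 0 in the same line and bio rep (right), by line and day. Circles are bio rep 1 and triangles bio rep 2, and the 4 degron libraries of day 4 lie between 38.2% and 66.5% of day 0.

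The promoters of these genes were searched for the elements through which mitotic genes are known to be controlled. The members were taken by symbol as mitotic genes, so the shares below describe the list and not its change on day 4. The windows of all genes were not limited to genes expressed here. Windows of 250 bases before to 50 bases after the annotated start (RefSeq, GRCh38.p14) were matched by symbol for 40 of the 50 members. AURKA, TPX2, TTK, BUB3, BIRC5, CENPH, CENPM, RACGAP1, UBE2C and FOXM1 had no window here. The CHR letters (TTTGAA or TTTAAA, both strands; TTTAAA reads alike on each) were in 33 of the 40 windows, 82.5%, and in 24.3% of 27305 windows of all genes. The CCAAT letters (CCAAT, both strands) were in 28, 70.0%, against 35.7% of all windows, and both elements were in 23, 57.5%, against 9.49%. An E2F motif (TTTCCCGC, TTTGGCGC, TTTCGCGC or TTTGCCGC, both strands) was in 2 of the windows, 5.0%, against 3.33% of all, and the letters GATAA, the core that GATA factors bind, were in 5, 12.5%, against 23.2%. The 6 windows below belong to the members with the largest falls on day 4 that have a window, and are shown to let the elements be read in place. CHR and CCAAT letters, or their reverse complements, are in capitals, and each window is printed 5′ to 3′ on the strand of its gene.
BUB1 (chr2:110678014-110678313, minus strand): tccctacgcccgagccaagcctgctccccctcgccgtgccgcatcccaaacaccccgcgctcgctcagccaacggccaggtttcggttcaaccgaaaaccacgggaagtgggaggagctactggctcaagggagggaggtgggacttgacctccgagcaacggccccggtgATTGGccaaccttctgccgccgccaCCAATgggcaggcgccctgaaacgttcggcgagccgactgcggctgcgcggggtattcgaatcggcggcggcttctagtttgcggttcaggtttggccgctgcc
SPC25 (chr2:168890381-168890680, minus strand): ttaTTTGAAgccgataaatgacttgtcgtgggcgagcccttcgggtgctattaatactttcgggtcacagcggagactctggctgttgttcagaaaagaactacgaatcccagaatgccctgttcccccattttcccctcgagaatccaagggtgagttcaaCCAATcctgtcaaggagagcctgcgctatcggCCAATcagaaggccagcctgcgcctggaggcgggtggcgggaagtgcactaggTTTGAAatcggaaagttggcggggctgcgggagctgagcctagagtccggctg
KIF2C (chr1:44739587-44739886, plus strand): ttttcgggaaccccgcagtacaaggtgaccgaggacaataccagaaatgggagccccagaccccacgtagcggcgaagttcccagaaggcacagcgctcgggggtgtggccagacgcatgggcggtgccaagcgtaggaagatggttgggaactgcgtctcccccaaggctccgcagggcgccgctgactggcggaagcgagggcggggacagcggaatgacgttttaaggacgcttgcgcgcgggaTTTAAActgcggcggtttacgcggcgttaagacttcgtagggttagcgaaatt
CCNA2 (chr4:121823834-121824133, minus strand): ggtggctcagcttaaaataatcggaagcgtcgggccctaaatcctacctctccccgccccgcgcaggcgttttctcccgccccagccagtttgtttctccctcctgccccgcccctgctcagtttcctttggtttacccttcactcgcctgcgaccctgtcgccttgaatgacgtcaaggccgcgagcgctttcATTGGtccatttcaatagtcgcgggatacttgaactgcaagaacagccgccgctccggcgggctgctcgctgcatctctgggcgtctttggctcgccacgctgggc
MAD2L1 (chr4:120066799-120067098, minus strand): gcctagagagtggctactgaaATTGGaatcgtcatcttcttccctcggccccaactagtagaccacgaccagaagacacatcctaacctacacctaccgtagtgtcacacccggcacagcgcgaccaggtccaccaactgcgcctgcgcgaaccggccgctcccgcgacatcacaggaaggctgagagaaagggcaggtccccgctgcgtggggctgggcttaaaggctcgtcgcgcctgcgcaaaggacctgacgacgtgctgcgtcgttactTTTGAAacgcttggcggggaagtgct
PTTG1 (chr5:160421605-160421904, plus strand): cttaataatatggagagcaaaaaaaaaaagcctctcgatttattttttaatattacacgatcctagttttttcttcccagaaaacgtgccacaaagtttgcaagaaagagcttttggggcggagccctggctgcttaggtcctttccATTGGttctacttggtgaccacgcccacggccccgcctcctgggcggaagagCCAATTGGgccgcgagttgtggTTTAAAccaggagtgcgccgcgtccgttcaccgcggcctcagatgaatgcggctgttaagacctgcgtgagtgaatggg

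The CHR letters began 247 and 3 bases before the start in the SPC25 window, 3 bases before it in KIF2C and 29 bases before it in PTTG1, and at base 25 after it in MAD2L1. In PTTG1 a forward and a reverse CCAAT overlap. These CHR letters were not in the windows of BUB1 and CCNA2, nor in those of CDC25B, CDC25C, AURKB, UBE2S and SPC24. A match is a run of letters and not a measured binding site. No other spelling of the CHR element was searched, so a window without TTTGAA and TTTAAA may still hold one. Apart from CDC25B (-0.67), the members whose windows lack these letters had day 4 changes between -0.96 (UBE2S) and -1.53 (BUB1).

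Of the genes that drive entry into mitosis, all 10 fell on day 4. AURKA is the kinase that matures centrosomes and builds spindle poles, and TPX2 is the microtubule protein that activates it. In degron line 1 (bio rep 1, then 2) and degron line 2, AURKA stood at 22.6, 25.4, 18.6 and 17.6 FPKM on day 4, against 53.1, 56.4, 55.6 and 52.1 FPKM in LMO2 control and parental cells, the order used for all values below. Every degron library lay below 26 FPKM and every control library above 52 FPKM, and the change was -1.01 ± 0.11 (SE; adjusted p = 3.53e-05, limma). TPX2 stood at 54.2, 67.9, 43.4 and 36.8 FPKM, against 99.3, 107.5, 115.7 and 112.5 FPKM, with no overlap and a change of -1.03 ± 0.12 (adjusted p = 5.73e-05). The other members of the group were lower too. The cyclins CCNA2, CCNB2 and CCNB1, whose proteins activate CDK1, changed by -1.29 ± 0.18, -1.16 ± 0.20 and -1.14 ± 0.17, and CDK1 itself by -1.10 ± 0.22. PLK1, the Polo-like kinase of spindle assembly, changed by -1.07 ± 0.20, and PLK4, which starts centriole duplication, by -0.84 ± 0.22. The phosphatases CDC25C and CDC25B, which remove the inhibitory phosphates from CDK1, changed by -1.06 ± 0.35 and -0.67 ± 0.16. The CDC25C call was lost in 10 of the 24 fits that leave out 1 library (adjusted p 0.0573 to 0.0974) and without the 4 libraries of bio rep 1 on day 1 (adjusted p = 0.0516). For CDC25B, degron line 1 and control libraries overlapped, with 17 and 21.9 FPKM against 19.7 to 22.0 FPKM, while degron line 2 was at 12.5 and 12.8 FPKM.

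The chromosomal passenger complex, which corrects faulty attachments at the centromere and then directs cytokinesis, fell in all 4 of its subunits. CDCA8 (borealin, which with survivin targets the complex to centromeres) stood at 21.6, 27.5, 17.2 and 13.2 FPKM, against 42.0, 44.8, 39.8 and 42.8 FPKM. BIRC5 (survivin, which reads the phosphorylated histone mark at centromeres) stood at 22.2, 31.6, 14.1 and 14.5 FPKM, against 44.1, 57.9, 42.5 and 53.3 FPKM. Neither gene's groups overlapped, and in both the lower values were those of degron line 2. The changes were -0.89 ± 0.13 for CDCA8 (adjusted p = 0.000224), -1.16 ± 0.17 for BIRC5 (adjusted p = 0.000261), -1.03 ± 0.24 for the kinase AURKB and -0.73 ± 0.14 for the scaffold INCENP.

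All 5 spindle checkpoint genes fell, and the group held both the largest change of the members and the smallest called one. BUB1, a kinase that recruits other checkpoint proteins to kinetochores, stood at 14.7, 17.2, 11.0 and 8.92 FPKM, against 49.0, 36.8, 65.2 and 51.2 FPKM, a change of -1.53 ± 0.28 (adjusted p = 0.00177). The BUB1 control libraries ranged widely, and its degron libraries were all below 18 FPKM. MAD2L1, whose product inhibits CDC20 while chromosomes are unattached, had the smallest adjusted p of the members, at 14.4, 16.7, 10.4 and 8.53 FPKM, against 35.5, 34.7, 36.7 and 37.2 FPKM (-1.25 ± 0.12, adjusted p = 1.56e-05). BUB1B, the BUBR1 subunit of the same inhibitor, stood at 15.7, 15.2, 10.7 and 7.36 FPKM, against 36.8, 31.0, 37.1 and 33.2 FPKM (-1.08 ± 0.15, adjusted p = 0.000252). TTK, the kinase that starts the checkpoint, changed by -1.03 ± 0.26. BUB3, the partner that docks BUB1 and BUBR1, had the smallest called change, -0.37 ± 0.10 (adjusted p = 0.0162), with 18.0 to 20.7 FPKM in degron lines and 27.2 to 30.5 FPKM in control lines.

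Among the genes that bring about anaphase, 4 of 5 fell. UBE2S, the enzyme that extends ubiquitin chains on substrates of the anaphase-promoting complex, stood at 41.6, 56.2, 29.1 and 32.7 FPKM, against 88.0, 96.9, 94.4 and 104.4 FPKM (-0.96 ± 0.14, adjusted p = 0.00034). ESPL1, the separase that cuts cohesin, stood at 6.0, 6.67, 3.39 and 2.81 FPKM, against 9.25, 10.2, 8.46 and 9.75 FPKM (-0.73 ± 0.12, adjusted p = 0.000694). Both separated the groups, ESPL1 by less. PTTG1 (securin, the inhibitor of separase) changed by -1.24 ± 0.25 and CDC20, the activator of the complex, by -0.95 ± 0.18. UBE2C, the enzyme that starts the chains, was not called and lay near 1 FPKM throughout, at 1.21, 0.735, 0.949 and 0.905 FPKM, against 1.20, 1.89, 0.507 and 1.64 FPKM.

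At the centromere and kinetochore 5 of 9 members fell. CENPA, the histone variant that marks the centromere, stood at 10.4, 14.3, 6.21 and 6.21 FPKM, against 21.9, 20.3, 22.6 and 21.4 FPKM (-1.18 ± 0.14, adjusted p = 5.75e-05). SPC24, a subunit of the NDC80 complex that binds microtubules, stood at 13.2, 16.6, 8.70 and 6.92 FPKM, against 21.7, 17.5, 22.0 and 19.4 FPKM (-1.01 ± 0.15, adjusted p = 0.000465). The degron groups lay below the control groups in both, with 16.6 and 17.5 FPKM as the nearest SPC24 values. The other subunits of the NDC80 complex also fell, SPC25 by -1.34 ± 0.21, NUF2 by -1.09 ± 0.24 and NDC80 by -0.78 ± 0.24, a call lost in 9 of the 24 fits (adjusted p 0.0533 to 0.0793). With the bio rep number as a block, which fits the paired design of this set, CENPH (-0.85, adjusted p = 0.00338, against 0.0664 without the block) and CENPM (-0.63, adjusted p = 0.00259, against 0.0917) were called as well; 15.6% of all genes were lower and 20.1% higher with the block.

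Of the spindle motors and cytokinesis genes, 5 of 10 fell. KIF2C, a kinesin that takes microtubule ends apart at kinetochores, stood at 27.9, 29.1, 16.5 and 13.4 FPKM, against 66.1, 54.0, 72.7 and 55.5 FPKM (-1.32 ± 0.24, adjusted p = 0.00132). KIF23, a motor of the central spindle, stood at 7.87, 7.88, 6.18 and 4.65 FPKM, against 14.6, 11.7, 14.4 and 12.3 FPKM (-0.76 ± 0.16, adjusted p = 0.00448). No degron value of these motors reached a control value. RACGAP1, the partner of KIF23 at the central spindle, changed by -0.55 ± 0.13, KIF4A, a chromosome-bound kinesin, by -0.55 ± 0.14, and KIF11, the motor that pushes spindle poles apart, by -0.65 ± 0.19, a call lost in 4 of the 24 fits (adjusted p 0.052 to 0.0653) and without bio rep 1 of day 1 (adjusted p = 0.0513). The motor KIF20A was called with the block (-0.82, adjusted p = 0.00546, against 0.111 without it).

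Among genes of chromosome structure, 4 of 6 fell. NCAPH, a condensin subunit, stood at 7.35, 9.35, 4.96 and 4.23 FPKM, against 15.6, 16.3, 16.5 and 16.7 FPKM (-1.08 ± 0.14, adjusted p = 9.99e-05). The control values spanned little more than 1 FPKM and no degron value came near them. MKI67, which codes for the proliferation marker Ki-67, stood at 18.7, 19.5, 13.9 and 10.3 FPKM on day 4, against 26.5, 28.9, 25.7 and 27.5 FPKM (-0.88 ± 0.17, adjusted p = 0.00266). On day 1 it stood at 25.5, 28.4, 20 and 25.2 FPKM, against 18.8, 26.9, 24.6 and 27.1 FPKM, and on day 0 at 27.1, 25.4, 23.2 and 28.7 FPKM, against 24.3, 25.1, 22.2 and 26.9 FPKM. The MKI67 groups overlapped on days 0 and 1 and not on day 4. TOP2A, the topoisomerase that untangles sister chromatids, changed by -0.91 ± 0.23, and NCAPG, another condensin subunit, by -0.82 ± 0.23.

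FOXM1, the transcription factor of the set, stood at 7.67, 10.5, 5.01 and 5.07 FPKM on day 4, against 11.3, 16.1, 10.4 and 14.5 FPKM. On day 1 it stood at 13.8, 16.3, 10.5 and 13.6 FPKM, against 12.9, 15.3, 12.2 and 13.7 FPKM, and on day 0 at 13.4, 17, 11.5 and 15.3 FPKM, against 11.6, 14, 10.8 and 15.6 FPKM. Bio rep 2 was above bio rep 1 in all 4 lines on each day, and on day 4 the value of degron line 1 bio rep 2 (10.5 FPKM) lay just above that of parental bio rep 1 (10.4 FPKM). The change on day 4 was -0.97 ± 0.23 (adjusted p = 0.00826).

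**Figure D3:**
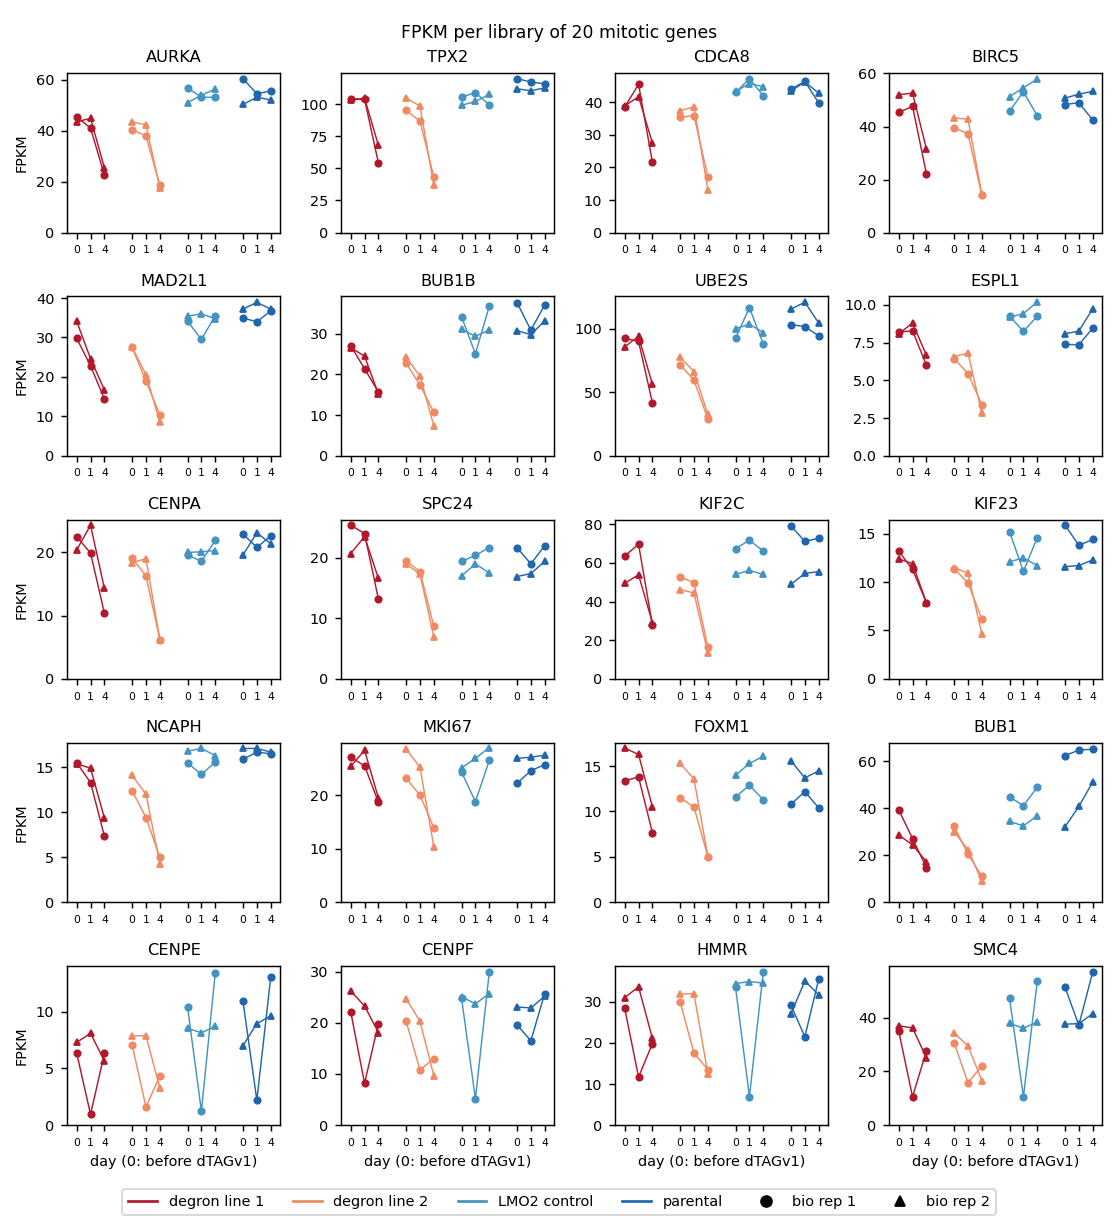
FPKM in each of the 24 degron-set libraries for 20 members, with lines joining days 0, 1 and 4 of 1 line and bio rep (circles bio rep 1, triangles bio rep 2). MAD2L1 in degron lines fell to between 8.53 and 16.7 FPKM on day 4, against 34.7 to 37.2 FPKM in control lines, and in the bottom row the day 1 points of bio rep 1 drop in all 4 lines for CENPE.

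The 12 members not called on day 4 were UBE2C, CENPE, CENPF, CENPH, CENPM, KIF20A, PRC1, ECT2, ANLN, HMMR, SMC2 and SMC4, and 11 of them also had a negative change. For CENPE, the kinesin that carries chromosomes to the spindle equator, day 4 values were 6.31, 5.64, 4.34 and 3.27 FPKM, against 13.4, 8.69, 13.0 and 9.62 FPKM, and day 1 values were 0.953, 8.08, 1.61 and 7.87 FPKM, against 1.23, 8.13, 2.19 and 8.93 FPKM. The 4 low day 1 values are those of bio rep 1 in the 4 lines, and the groups did not overlap on day 4. Likewise CENPF, an outer kinetochore protein, stood at 8.19 and 23.3 FPKM on day 1 in degron line 1 and at 5.16 and 23.7 FPKM in LMO2 control. The spindle protein HMMR stood at 11.7 and 33.6 FPKM in degron line 1 and 6.88 and 34.9 FPKM in LMO2 control on that day. SMC4 stood at 10.6 and 36.2 FPKM in degron line 1 and 10.6 and 36.1 FPKM in LMO2 control, and its condensin partner SMC2 at 6.04 and 16.5 FPKM in degron line 1 and 3.86 and 16.8 FPKM in LMO2 control. The same 5 genes had low bio rep 1 values in a degron and a control line alike.

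With the 4 libraries of bio rep 1 on day 1 left out, an alternative added after the data were seen, all 5 were called lower on day 4: CENPE by -0.75 ± 0.23 (adjusted p = 0.0485), CENPF by -0.83 ± 0.16 (0.00493), HMMR by -1.02 ± 0.10 (0.000252), SMC2 by -0.65 ± 0.15 (0.0145) and SMC4 by -0.71 ± 0.22 (0.0488), in limma. The change itself was the same as rounded, since day 1 does not enter it, and its SE did, since all days share 1 estimate of spread per gene: for CENPE it was 0.74 with these libraries. On day 4 CENPF stood at 19.8, 18.1, 13.0 and 9.64 FPKM, against 29.9, 25.7, 25.7 and 25.2 FPKM, and HMMR at 19.8, 21.1, 13.5 and 12.5 FPKM, against 37.2, 34.5, 35.5 and 31.7 FPKM. SMC2 stood at 12.4, 12.1, 9.18 and 7.4 FPKM, against 17.9, 16.6, 17.3 and 17.7 FPKM, and SMC4 at 27.6, 25.1, 22.0 and 16.6 FPKM, against 53.6, 38.4, 57.0 and 41.5 FPKM. In all 4 the degron libraries lay below the control libraries. Without these libraries 41 members were called in all, 36 of them among the 38. The share of all genes called on day 4 in this fit is not given here, so a general rise in calls cannot be told from one in the members.

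The remaining members that were not called differ in another way. CENPH, an inner kinetochore protein, stood at 20, 20.4, 13.0 and 12 FPKM on day 4, against 46.9, 29.1, 54.1 and 29.6 FPKM, and KIF20A at 11.9, 11.7, 7.70 and 6.0 FPKM, against 27.3, 17.8, 30.2 and 19.9 FPKM. In both, bio rep 1 was above bio rep 2 in each control line, and no degron value reached a control value. CENPH was also called when LMO2 control bio rep 2 or parental bio rep 2 of day 4 or parental bio rep 1 of day 0 was left out (adjusted p 0.0231 to 0.039), and KIF20A when that last library was (adjusted p = 0.0196). CENPM, another inner kinetochore protein, stood at 8.27, 11.1, 5.13 and 5.80 FPKM, against 11.1, 14.9, 9.88 and 13.1 FPKM, which overlapped.

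The last 3 uncalled members act in cytokinesis. ECT2, which activates RHOA at the division furrow, stood at 11.0, 11.8, 9.54 and 7.21 FPKM, against 18.1, 13.1, 15.9 and 13.7 FPKM (-0.36 ± 0.21, adjusted p = 0.253), and ANLN (anillin), a scaffold of the furrow, at 10.3, 11.3, 8.86 and 6.75 FPKM, against 15.8, 13.1, 19.9 and 14.8 FPKM (-0.55 ± 0.22, adjusted p = 0.0962). The degron values were below the control values in both. PRC1, the bundler of central spindle microtubules, stood at 0.678, 0.413, 0.504 and 0.363 FPKM, against 1.25, 0.843, 1.66 and 1.11 FPKM (-0.34 ± 0.25, adjusted p = 0.378). PRC1 ranged from 0.363 to 2.22 FPKM over this table, and stood at 113.9 to 148.0 TPM in K562 of the LDB1 set and at 173.2 to 197.9 CPM in HEL. UBE2C, at 0.298 to 1.89 FPKM here, was at 39.3 to 47.1 CPM in HEL. The values of these genes in the degron table are therefore uncertain, and no source used here says how its reads were assigned to them. The pseudocount of 1 shrinks the changes of both.

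On day 1 no member was called in limma (0 of 50, where 0.0521% of genes were called lower and 0.0261% higher, and 1 member had an unadjusted p under 0.05). The median change of the members was -0.03, with 28 below and 22 above 0, where the median of all genes was 0.03. Without bio rep 1 of day 1 again 0 were called (0.00% of all genes in either direction, and 1 member at an unadjusted p under 0.05), and the median was 0.04, with 19 below and 31 above 0, so the sign of the day 1 median rests on those libraries. The member with the smallest p was MAD2L1, at 22.8, 24.6, 18.9 and 20.6 FPKM, against 29.5, 36.0, 34.0 and 38.9 FPKM, a change of -0.40 ± 0.12 (adjusted p = 0.337), and of -0.46 ± 0.14 without bio rep 1 of day 1 (adjusted p = 0.836). The 4 degron values lay below the 4 control values on day 1, as they did by less on day 0, with 29.8, 34.1, 27.5 and 27.5 FPKM, against 34.1, 35.4, 34.9 and 37.2 FPKM, where the highest degron and lowest control value are equal as rounded. Within degron line 2, the fall of MAD2L1 from day 0 was called on day 1 with the block (adjusted p = 0.0276; 1.73% of all genes were lower and 1.70% higher). BUB1 changed by -0.49 ± 0.28 on day 1, with 27.1, 24.4, 20.4 and 22.4 FPKM, against 41.1, 32.5, 64.9 and 40.8 FPKM (adjusted p = 0.845). On day 1 the degron groups lay below the control groups in 10 of 50 members, where 10% of all genes did so.

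Between day 1 and day 4 the degron-specific change became more negative in all 50 members, and 37 were called lower and 0 higher, where 3.26% of all genes were called lower and 3.85% higher. The median was -0.88, where that of all genes was 0.03. Every member of the mitotic entry group and the passenger complex was called. Without bio rep 1 of day 1, all 50 were again negative, with a median of -0.96, and 18 were called lower and 0 higher (1.20% and 0.795% of all genes), among them 5 of the 10 entry genes and 3 of the 4 passenger genes. With all libraries, the count was 3 with degron line 1 alone, and 23 and 21 with the parental line or LMO2 control as the only control. No share of all genes is given for these fits.

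Members fell on day 4 in each degron line. Set against the control lines, degron line 1 alone had 17 members called lower and degron line 2 alone 37. The share of all genes called in these fits is not given here, so the counts cannot be set against it. Tested on its own against day 0, limma called 0 members on day 1 in degron line 1 (0.0456% of all genes lower and 0.0261% higher, and 1 member at an unadjusted p under 0.05) and 0 in degron line 2 (0.274% lower and 0.228% higher, and 3 members). Both counts were 0 without bio rep 1 of that day as well, with medians of 0.05 and -0.02. On day 4 degron line 1 had 26 members called lower and 0 higher (6.31% and 13.7% of all genes), with a median change of -0.64, and degron line 2 had 42 and 0 (9.84% and 15.0%), with a median of -1.20. The 26 members called in line 1 were called in line 2 as well. KIF2C changed by -0.95 in line 1 and by -1.66 in line 2, and CENPA by -0.76 and -1.45. The change was more negative in line 2 in 48 of 50 members, all but BUB3 (-0.40 in line 1 and -0.38 in line 2) and UBE2C. The difference between the lines itself was called in 0 members by limma, with 16 at an unadjusted p under 0.05, and in 0.00652% of all genes in each direction. Its median over the members was -0.54 and the member with the smallest adjusted p was CENPA, at -0.69 ± 0.20 (adjusted p = 0.737).

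The control lines did not follow. In parental and LMO2 control cells, 0 members were called on day 1 or day 4 against day 0 by limma (0.00% of all genes in either direction), and 0 had an unadjusted p under 0.05. Their median change was -0.02 on day 1 (-0.08 without bio rep 1 of that day, with 0 called and 0 at an unadjusted p under 0.05) and 0.01 on day 4. The median on day 4 was 0.02 in the parental line and 0.03 in LMO2 control.

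Before dTAGv1 the degron lines already had slightly lower levels of some members. On day 0, AURKA stood at 45.4, 43.4, 40.4 and 43.5 FPKM, against 56.8, 51.0, 60.4 and 50.3 FPKM, a difference of -0.33 ± 0.08 (adjusted p = 0.00882). BUB1B stood at 27.1, 26.6, 22.8 and 24.2 FPKM, against 34.2, 31.1, 37.7 and 30.8 FPKM (-0.39 ± 0.11, adjusted p = 0.0208), and UBE2S at 92.3, 85.7, 71.7 and 77.5 FPKM, against 92.5, 100, 103.2 and 115.4 FPKM (-0.33 ± 0.10, adjusted p = 0.0353). All 3 separated the groups, UBE2S barely, at 92.3 and 92.5 FPKM. These were the 3 members called lower, with 0 called higher, where 6.14% of all genes were lower and 10.6% higher, so the members' share was near that of all genes. The degron libraries lay below the control libraries in 8 of 50 members on day 0, where 5.94% of all genes did so. The median of the members was -0.16. With the block MAD2L1, KIF20A, BUB3, CCNA2 and CDC20 were called lower as well, 8 in all, and 1 was higher (12.9% and 17.9% of all genes), the kinetochore gene SPC25, at 53.5, 59.2, 52.2 and 56.3 FPKM, against 38.3, 39.1, 36.6 and 47.8 FPKM (0.45 ± 0.11, adjusted p = 0.00604, against 0.0524 without the block). SPC25 thus began above the control lines and stood at 27.8, 35.4, 20 and 18.7 FPKM on day 4, against 46.5, 45.1, 48.0 and 47.0 FPKM. The day 0 count was 1 without LMO2 control bio rep 1, degron line 1 bio rep 1, degron line 2 bio rep 1 or degron line 1 bio rep 2, and 8 without parental bio rep 2, all of day 0. It was 0 with LMO2 control as the only control.

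Other genes of mitosis, 118 in 9 lists that hold no member, were read for comparison, 117 of them tested in the degron set. On day 4, 45 were called lower and 2 higher (8.18% and 11.6% of all genes), with a median of -0.50. The lists differed in how many fell. The kinase partners of CDK1, with the WEE1 family and the CKS proteins, had 10 of 11 called lower, led by PKMYT1, which inhibits CDK1 (-1.17 ± 0.15), and CKS1B and CKS2, which bind cyclin-dependent kinases (-1.05 ± 0.14 and -0.97 ± 0.15). The other condensin subunits had 4 of 4 called lower, among them NCAPG2 (-0.93 ± 0.17). Of the other kinesins and spindle proteins 10 of 19 were lower and 1 higher, led by TACC3 (-0.81 ± 0.11) and KIF18B (-0.95 ± 0.16). Among the DREAM, MuvB and E2F regulators 7 of 17 were lower and 1 higher, and MYBL2, which codes for the B-MYB activator of mitotic genes, changed by -1.43 ± 0.18 (adjusted p = 0.000121).

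The 5 remaining lists are parts of larger complexes and structures. Of the inner kinetochore and CENPA loading genes 6 of 15 were lower, led by CENPU (-0.95 ± 0.15), and of the outer kinetochore genes 3 of 13, led by ZWINT (-0.86 ± 0.21). The cohesin list had 2 of 13 lower, CDCA5 (sororin, which protects cohesion; -1.04 ± 0.14) and the cohesin subunit SMC1A (-0.54 ± 0.15), and the centriole list 3 of 11. The core of the anaphase-promoting complex had 0 of 14 called by limma, with 4 at an unadjusted p under 0.05 and a median of -0.04. With the block, the outer kinetochore list had 8 lower, the centriole list 5, and the anaphase-promoting complex 3 lower and 1 higher, where 15.6% of all genes were lower and 20.1% higher. These counts were not tested against each other.

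In HEL, calls come from the fit without the bio rep number as a block unless stated. By it, knockdown of TAL1 lowered few of the 50 members, and no member was called with both pools. With the block, 11 members were lower with siPool 1 and 4 with siPool 2, where 8.81% and 5.18% of all genes were lower. With siPool 1, 4 members were called lower and 0 higher by edgeR, where 1.65% of all genes were called lower and 2.56% higher. BUB1 stood at 385.9, 410.4 and 363.6 CPM with siPool 1, at 525.5, 570.0 and 553.8 CPM with siPool 2 and at 474.4, 550.7 and 552.0 CPM with the NT pool. All siPool 1 values lay below all others, and its change against NT was -0.44 ± 0.08 (log2 scale; adjusted p = 0.0094). MAD2L1 stood at 92.2, 77.8 and 68.6 CPM with siPool 1, at 125.9, 103.8 and 94.8 CPM with siPool 2 and at 130.2, 106.5 and 119.2 CPM with the NT pool (siPool 1: -0.58 ± 0.13, adjusted p = 0.0246). BIRC5 stood at 38.7, 34.1 and 29.7 CPM with siPool 1, at 54.5, 44.6 and 42.5 CPM with siPool 2 and at 52.4, 49.8 and 47.9 CPM with the NT pool (siPool 1: -0.55 ± 0.12, adjusted p = 0.0227). In these, too, siPool 1 lay apart from both other groups. CENPH had the largest fall with siPool 1, at 14.7, 20 and 20.3 CPM, against 23.0, 32.2 and 29.6 CPM with the NT pool (-0.63 ± 0.15, adjusted p = 0.0384). The largest positive change was that of ANLN, at 65.7, 53.2 and 56.6 CPM, against 60.9, 47.2 and 47.5 CPM (0.17 ± 0.14, adjusted p = 0.584), and the groups overlapped. The median over the 50 members was -0.10, with 43 below 0, where the median of all genes was -0.02.

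With siPool 2, 2 members were called lower and 0 higher (0.563% and 0.491% of all genes). SPC25 stood at 20.7, 17.9 and 25.1 CPM with siPool 2, against 33.5, 35.5 and 31.9 CPM with the NT pool (-0.66 ± 0.12, adjusted p = 0.0208), and KIF11 at 101.2, 81.7 and 78.3 CPM, against 133.9, 117.0 and 119.7 CPM (-0.50 ± 0.11, adjusted p = 0.0464). Neither group of values overlapped. With siPool 1 the same genes stood at 28.1, 28.9 and 27.4 CPM and at 122.1, 115.9 and 103.5 CPM. The largest positive change was that of CDC25B, at 55.4, 65.6 and 76.2 CPM, against 52.9, 62.2 and 53.3 CPM (0.23 ± 0.12, adjusted p = 0.5). The median of the members was 0.01, with 24 below and 26 above 0, and 20 members were below 0 with both pools, which share the NT libraries. FOXM1 stood at 96.1, 80.1 and 79.5 CPM with siPool 1 and 105.5, 87.9 and 83.4 CPM with siPool 2, against 90.8, 85.4 and 85.1 CPM with the NT pool. MKI67 stood at 639.9, 582.7 and 584.1 CPM with siPool 1 and 596.3, 520.0 and 500.2 CPM with siPool 2, against 598.1, 540.2 and 507.6 CPM. Neither was called with either pool. Compared within each bio rep, MKI67 was above its NT value with siPool 1 and below it with siPool 2, while FOXM1 went both ways with each pool. 

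The HEL calls rest on single libraries. With siPool 1 the count was 2 without NT replicate 1 or NT replicate 2, 0 without NT replicate 3 or siPool 1 replicate 3, and 1 without siPool 1 replicate 2. With siPool 2 it was 0 without NT replicate 2, NT replicate 3 or siPool 2 replicate 2, and 1 without NT replicate 1, siPool 1 replicate 2, siPool 1 replicate 3 or siPool 2 replicate 3. The signs of the 6 genes held in each of these fits, with BUB1 between -0.51 and -0.40 and SPC25 between -0.80 and -0.56. Of the 118 other mitotic genes, 7 were called lower with siPool 1, among them CDC23 of the anaphase-promoting complex (-0.71 ± 0.10) and CENPQ of the inner kinetochore (-0.92 ± 0.16), and 0 higher. With siPool 2, 0 were called by edgeR or by DESeq2, with 16 at an unadjusted p under 0.05 in edgeR.

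The difference between the pools was tested directly, and 3 members were higher with siPool 2 than with siPool 1 and 0 lower (1.08% and 1.68% of all genes). These were BUB1 (0.51 ± 0.08, adjusted p = 0.00652), KIF2C, at 276.2, 281.9 and 274.3 CPM with siPool 2, against 199.6, 218.8 and 213.6 CPM with siPool 1 (0.40 ± 0.07, adjusted p = 0.012), and SPC24, at 45.3, 47.1 and 45.5 CPM with siPool 2, against 32.6, 36.8 and 32.7 CPM with siPool 1 (0.43 ± 0.10, adjusted p = 0.0284). KIF2C stood at 241.1, 257.2 and 244.8 CPM and SPC24 at 41.6, 46.0 and 41.2 CPM with the NT pool. The count was 1 without siPool 1 replicate 3 or siPool 2 replicate 2, and SPC24 lost its call in 6 of the 9 fits that leave out 1 library (adjusted p 0.0522 to 0.142). DESeq2 called 5 members higher and 2 lower, and edgeR without the filter 5 higher and 1 lower.

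**Figure D4:**
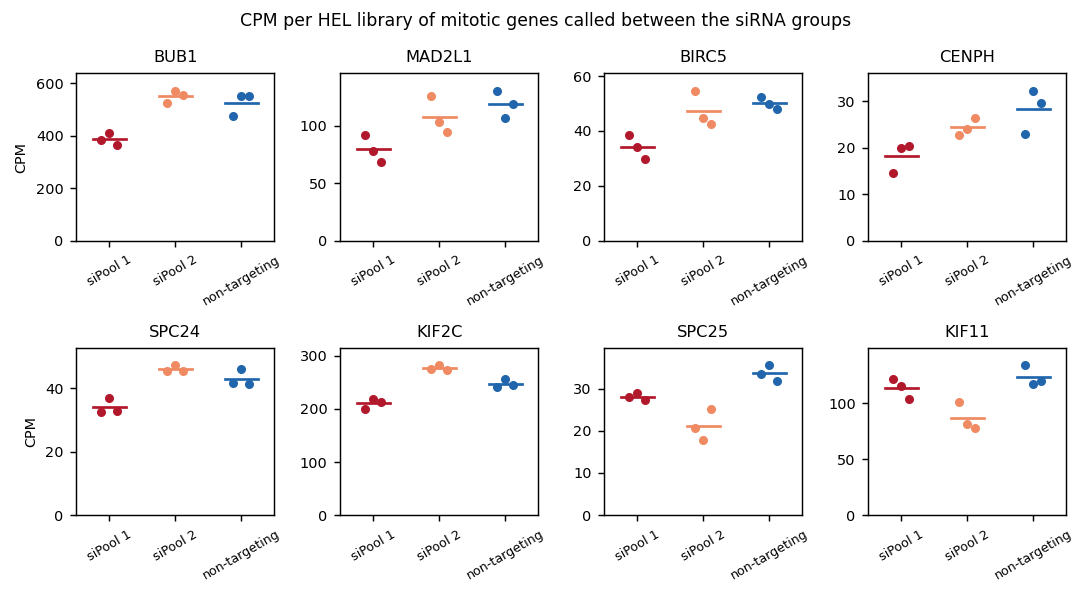
CPM in each HEL library (points) with the group mean (line) for the 8 members called in any comparison of the siRNA groups without the block. BUB1, MAD2L1, BIRC5, CENPH, SPC24 and KIF2C are lowest with siPool 1, and SPC25 and KIF11 are lowest with siPool 2.

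On the scale of the deposited values, depletion of LDB1 in K562 left the members near their control level on average. With 1 library per group there is no test and no replicate check. Genes were counted where both shRNAs gave a change of 1 or more, up or down, in log2(TPM + 1), and 0 of the 49 members reached that, where 2.21% of 12445 genes did so downward and 8.94% upward. The median log2 ratio of the members was -0.13 with shRNA 1 and 0.07 with shRNA 2, where that of all genes was 0.18 and 0.13. Trimmed-mean rescaling moved the medians of all genes to -0.01 and -0.01 and those of the members to -0.33 and -0.07, with 41 and 33 of 49 members below 0, against 31 and 16 before it. The direction of the members with shRNA 2 thus depends on the scaling, while their median with shRNA 1 was below 0 on both scales.

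The lowest ratios were those of BUB1, at 46.6 TPM with shRNA 1 and 70.9 TPM with shRNA 2, against 100.7 TPM with the control shRNA, of CCNA2, at 130.2 and 161.3 TPM, against 248.2 TPM, and of ANLN, at 23.9 and 28.2 TPM, against 40.9 TPM. Both shRNAs gave lower values than the control for each of these, and shRNA 1 the lower one. BUB1 passed the fold of 2 with shRNA 1 only (log2 ratios -1.10 and -0.50). The highest ratios were those of CDC25B, at 90.4 and 112.3 TPM, against 62.7 TPM, of KIF11, at 52.8 and 54.0 TPM, against 37.6 TPM, and of ECT2, at 35.6 and 38.1 TPM, against 26.5 TPM. FOXM1 stood at 26.0 and 34.4 TPM, against 25.9 TPM, and MKI67 at 67.0 and 75.3 TPM, against 53.8 TPM. Of the 5 checkpoint genes, 4 were below 0 with both shRNAs, and BUB3 was above 0 with both and below it after rescaling.

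**Figure D5:**
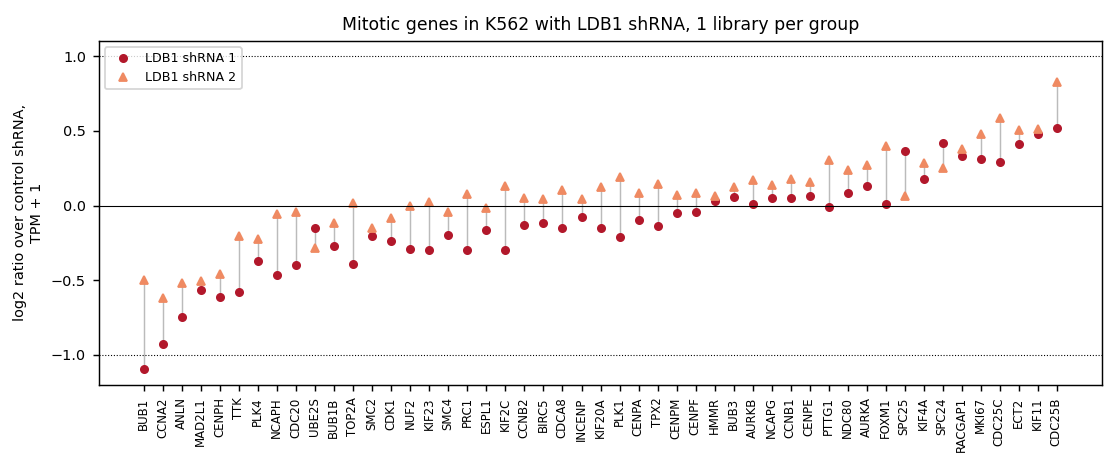
Log2 ratio of (TPM + 1) of each LDB1 shRNA over the control shRNA for 49 members, ordered by the mean of the ratios, with dotted lines at 1 and -1. BUB1 with shRNA 1 (-1.10) is the only point beyond a dotted line.

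Set side by side, the 3 experiments could share few calls, because few members were called in HEL and 0 of 49 passed the fold with LDB1 shRNA. Of the 38 members called lower on day 4 of the degron set, 3 were also among the 4 lower with siPool 1 in HEL (BUB1, MAD2L1 and BIRC5) and 2 were the 2 lower with siPool 2 (SPC25 and KIF11). Since 38 of the 50 members were called on day 4, such an overlap is likely for any members called elsewhere. BUB1 and MAD2L1 were low in each set at least once: their changes were -1.53 and -1.25 on day 4 of the degron set, -0.44 and -0.58 with siPool 1, 0.07 and -0.13 with siPool 2, and -0.80 and -0.54 as the mean LDB1 ratio. CCNA2, whose mean LDB1 ratio was -0.77, changed by -1.29 in the degron set and was not called in HEL. Across members, the day 4 change had a Spearman correlation of 0.57 with the siPool 1 change (50 members), of 0.09 with the siPool 2 change (50) and of 0.26 with the mean LDB1 ratio (49). The day 4 change also had a correlation of -0.60 with the members' mean log2(FPKM + 1) on day 0 (50), larger falls going with higher levels. These values describe members that vary together within a library, and carry no test. KIF11 was called lower in K562 on day 4 and in HEL with siPool 2, and was above the control with both LDB1 shRNAs.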

How the data were processed

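Polyadenylated RNA was sequenced, and the submitters' processing notes name hg19 with the tools featureCounts, STAR and FastQC, without saying what each did. The authors deposited FPKM values for the degron set, gene counts for HEL and TPM values for the LDB1 set. In the degron set limma 3.58.1 (trend, robust) was fitted to log2(FPKM + 1) over 12 line-by-day groups, with genes at 1 FPKM or more in at least 2 libraries. In HEL edgeR 4.0.16 was fitted (quasi-likelihood, TMM, filterByExpr), with DESeq2 1.42.0 as an alternative. P-values were adjusted by Benjamini-Hochberg over all genes tested, 15348 and 16688. LDB1 ratios used log2(TPM + 1) and had no test. Scripts were tested on simulated data. Bio rep numbers pair the degron libraries: all 132 correlations of same-numbered deviations were over 0.1, the lowest 0.119. With 2 libraries per group, their deviations from the group mean mirror each other, so each of these correlations is counted 2 times. Members and lists were chosen with earlier results of these data known. Named genes were FOXM1, MKI67, the 2 members per role with the smallest day 4 adjusted p, members not called on day 4, members higher anywhere, the largest HEL changes, the 3 highest and lowest LDB1 ratios, and up to 3 genes per other list. Others, such as BUB1 and the promoters shown, were chosen after their values were seen. Promoter windows came from RefSeq, GRCh38.p14, and no hg19 coordinate was used. Alternatives covered pseudocount, filter, scaling, control line, degron line, block and each library left out. One marker list is not reported here.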

Additional observations from a re-analysis of the deposited data

Results flagged for a closer look

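In HEL, 3 members were higher and 0 lower in the direct test of siPool 2 against siPool 1 (1.08% and 1.68% of all genes). This test compares the pools with each other and not with the NT pool. The difference was 0.40 for KIF2C, 0.43 for SPC24 and 0.51 for BUB1 on the log2 scale, each higher with siPool 2. Of the 9 fits that leave out 1 library, SPC24 lost its call in 6, KIF2C in 2 and BUB1 in 0.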

How the results depend on the processing

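Counts are of members called, and the share of all genes is known here only where it stands beside a count. The day 4 count of 38 was 31 with the parental line as the only control and 29 with LMO2 control only. It was 17 with degron line 1 alone and 46 with bio reps averaged and the lines taken as replicates. With 1 library left out it was 35 to 40. Of the 38, 35 were called in all 24 fits that leave out 1 library, and CDC25C, NDC80 and KIF11 were lost in some. The count of day 4 minus day 1, 37, was 23 with the parental line as the only control, 21 with LMO2 control only, 3 with degron line 1 alone, 18 without bio rep 1 of day 1 (added after seeing the data) and 26 to 37 with 1 library left out. The day 0 count of 3 was 9 with the replicate block, 0 with LMO2 control only, 0 with degron line 1 alone, 6 with degron line 2 alone and 1 to 8 with 1 library left out. The block gave 41 on day 4 and 41 for day 4 minus day 1. In HEL 6 of 9 same-numbered correlations were over 0.1 (0.087 to 0.363, median 0.123), against a median of -0.16 between different numbers. The last median is no independent baseline, since deviations from a group mean add up to 0 within the group. The replicate numbers thus pair the samples weakly, and the main HEL calls do not use this pairing. With the block siPool 1 had 11 lower (8.81% of all genes were lower) and siPool 2 had 4 lower (5.18%). The difference of the pools had 20, of which 16 higher (7.09%) and 4 lower (7.48%). Without the block the counts were 4, 2 and 3, and with 1 library left out 0 to 4, 0 to 2 and 1 to 4. The siPool 2 count was 1 with RLE scaling and 0 with its own groups only, and the pool difference was 6 without a filter (5 higher, 1 lower) and 7 with DESeq2 (5 higher, 2 lower). Of the 118 other mitotic genes, DESeq2 called 15 lower with siPool 1, against 7 by edgeR. The LDB1 count of 0 was 1 at a fold of 1.5 and 1 with shRNA 1 alone. The counts of 0 on day 1, in the control lines and between degron lines stayed 0 with each library left out. No member's call reversed its direction; of the uncalled LDB1 ratios, rescaling left 41 and 33 of 49 below 0, against 31 and 16 before it. Causes were not tested. What sets the low values of UBE2C and PRC1 in the degron set was not tested.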
